A study of Mus musculus with 9 samples.

Results

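miRNAs of back skin of a diabetic mouse model were compared with those of the skin at a wound edge on day 7, with 3 libraries against 3. These are 6 of the 9 libraries of the study, and they were chosen by their labels alone. All mice were C57BL/6, a common inbred laboratory strain, and adult females aged 6 months. The diabetic libraries come from back skin of a diabetic model wounded with a hole punch 8 mm across. How diabetes was induced is not given in the labels, and neither is a blood glucose value. The day 7 libraries come from the wound edge of non-diabetic mice 7 days after the same punch. A further group of 3, skin removed at wounding on day 0 from non-diabetic mice, entered the fit and is shown for orientation. The labels of the diabetic group disagree on time: the sample titles carry T7, the count columns carry T0, and the treatment text speaks of day 0 skin. The diabetic model and the time since wounding can therefore not be told apart in any difference given here. The labels speak of 9 mice in 3 groups but do not tie libraries to animals, so p-values measure the spread between these libraries, which may be partly technical.

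miRNAs are RNAs of about the length of a short primer that guide Argonaute proteins to messenger RNAs. A hairpin precursor is cut into a 5p and a 3p arm, and 1 arm is usually kept more than the other. Targets are read mainly through the seed, bases 2 to 8 of the mature miRNA, so miRNAs with the same seed can bind overlapping sets of messages. In healing skin, keratinocytes migrate over the wound while neutrophils and then macrophages enter it, and each of these cell types carries its own abundant miRNAs. In diabetes, healing is often delayed and inflammation prolonged.

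The sequences of the miRNAs on which the results turn are shown here as RefSeq gives them for the mouse assembly GRCm38.p6, 5′ to 3′, with the seed in capitals. The first set holds some of the largest and most abundant decreases in the diabetic group, with both arms of the miR-335 hairpin.
miR-335-3p: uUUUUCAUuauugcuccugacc
miR-335-5p: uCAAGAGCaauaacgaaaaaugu
miR-21a-5p: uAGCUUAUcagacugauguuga
miR-223-3p: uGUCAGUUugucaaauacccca
miR-335 lies in an intron of Mest, an imprinted gene, at chr6:30741354-30741375 for the 3p arm and chr6:30741314-30741336 for the 5p arm, plus strand. miR-21a-5p is at chr11:86584120-86584141, minus strand, over an annotated exon of Vmp1, and miR-223-3p is at chrX:96242884-96242905, plus strand, over an exon of the non-coding transcript F630028O10Rik. The second set holds epithelial miRNAs of the miR-200 family, which keeps cells in the epithelial state, and of the miR-183/96/182 cluster.
miR-200a-3p: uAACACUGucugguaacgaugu
miR-141-3p: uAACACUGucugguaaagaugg
miR-429-3p: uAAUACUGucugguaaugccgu
miR-200b-3p: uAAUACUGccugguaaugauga
miR-182-5p: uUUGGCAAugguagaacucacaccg
miR-96-5p: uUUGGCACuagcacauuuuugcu
miR-183-5p: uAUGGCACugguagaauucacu
miR-200a-3p and miR-141-3p share the seed AACACUG, and miR-429-3p and miR-200b-3p share AAUACUG. miR-200a, miR-200b and miR-429 are neighbours on the minus strand of chromosome 4 (chr4:156054911-156054932 for miR-200a-3p and chr4:156053916-156053937 for miR-429-3p), within a Ttll10 intron, while miR-141-3p lies on the minus strand at chr6:124717917-124717938. miR-182-5p (chr6:30165962-30165986), miR-96-5p (chr6:30169506-30169528) and miR-183-5p (chr6:30169711-30169732) are neighbours on the minus strand of chromosome 6, outside annotated genes of that strand. The third set pairs miRNAs of 1 seed with unlike calls.
miR-497a-5p: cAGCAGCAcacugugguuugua
miR-15b-5p: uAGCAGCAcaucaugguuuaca
miR-98-5p: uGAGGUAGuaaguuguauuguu
let-7f-5p: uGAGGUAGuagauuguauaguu
miR-106b-5p: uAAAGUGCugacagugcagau
miR-20a-5p: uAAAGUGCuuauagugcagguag
miR-497a-5p (chr11:70234730-70234751, plus strand, intergenic on that strand) and miR-15b-5p (chr3:69009775-69009796, plus strand, Smc4 intron) share the seed AGCAGCA. miR-98-5p (chrX:151913229-151913250, plus strand, Huwe1 intron) has the let-7 seed GAGGUAG, and a copy of let-7f-5p lies in the same intron at chrX:151912353-151912374. miR-106b-5p (chr5:138165787-138165807, minus strand, Mcm7 intron) and miR-20a-5p (chr14:115044183-115044205, plus strand, within the Mir17hg transcript) share AAAGUGC.

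Library totals ranged from 2537167 to 5453539 counts over the 9 libraries, and 667 to 805 of the 1129 miRNA rows had a count in a library. Levels are given as CPM, counts per 1000000 after TMM scaling of the library totals. The defining miRNAs of skin epidermis were abundant in both groups: miR-203-3p had 55022 ± 12080 CPM in the diabetic group and 44888 ± 2542 CPM at day 7 (mean ± SD, n = 3 each). Striated muscle miRNAs were abundant as well and spread widely, with a summed level of 30302 to 132659 CPM over the diabetic libraries and 50432 to 100763 CPM over the day 7 libraries for the 6 tested members. The nerve miRNA miR-124-3p had at most 3 counts in any library. The miRNA miR-122-5p, known from liver, was near 3 CPM in all 3 libraries numbered 2 and between 55.1 and 171 CPM in the others, across all groups.

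Of 447 miRNAs tested with edgeR's quasi-likelihood test, 89 (19.9%) differed between the diabetic group and day 7 at a Benjamini-Hochberg adjusted p under 0.05. In the diabetic group 35 (7.83%) were higher and 54 (12.1%) were lower. For 171 miRNAs (38.3%) the ranges of the 3 and 3 libraries did not overlap. TMM sets the bulk of the miRNAs to no change, and over all tested miRNAs the median log2 fold change was -0.02. Scaling by total counts instead moved that median to 0.61 and gave 174 higher and 24 lower, a share of 87.9% higher among the calls in place of 39.3%. No spike-in was used here, so every change is relative to the other miRNAs. Leaving out 1 library left between 49 calls, without day 7 replicate 1, and 101 calls, without day 0 replicate 1. It left 52 without diabetic replicate 2 and 59 without day 7 replicate 2. Of the 89 calls, 42 (20 higher and 22 lower) held in each of the 19 alternatives that tested them. Among the 89, 6 are rows opposite another row or with the same counts, so some reads may be counted more than once. All 6 are also among the 42, and the alternative that left such rows out did not test them. Against day 0 the same diabetic libraries gave 0 calls (0%) by edgeR, against 5 by DESeq2, and 40 miRNAs had an unadjusted edgeR p under 0.05. Both comparisons share the diabetic libraries.

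**Figure D1:**
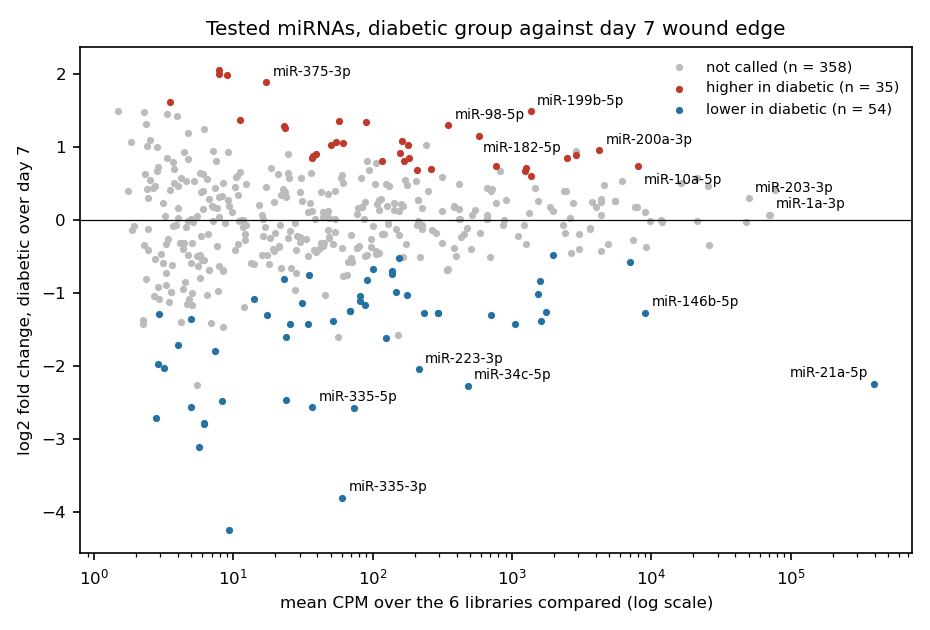
Each point is 1 of the 447 tested miRNAs, with its mean CPM over the 6 libraries on a log axis and its log2 fold change, diabetic over day 7, on the vertical axis. Red points are the 35 called higher, blue points the 54 called lower and grey points the 358 not called, and miR-21a-5p stands alone at the right with a log2 fold change of -2.24.

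miR-21a-5p had the largest difference in its share of the counts. This miRNA, induced in injured and inflamed tissue, made up 19.4%, 16.7% and 13.7% of all counts in the diabetic libraries, against 55.6%, 52.7% and 40.6% in the day 7 libraries. The day 0 libraries held 18.6%, 33.2% and 27.4%, so the diabetic and day 0 ranges overlapped while all day 7 libraries lay above both. On the TMM scale, which is relative to the other miRNAs and can pass the share of counts, miR-21a-5p was 4.74-fold below its day 7 level in the diabetic group (log2 fold change -2.24 ± 0.34, SE, adjusted p = 0.00130, edgeR). Its rare partner arm miR-21a-3p stood at 7.53, 7.55 and 6.89 CPM in the diabetic libraries, against 55.7, 31.1 and 35.6 CPM in the day 7 libraries, a log2 fold change of -2.47 ± 0.30. On the TMM scale the diabetic libraries were thus low and close together for miR-21a-3p, and the day 7 libraries high and more spread. As a share of all counts, miR-21a-5p took 16.6% ± 2.85 in the diabetic group and 49.6% ± 7.95 at day 7 (SD, n = 3 each). Relative to these means the spread was similar in both groups.

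The 35 miRNAs called higher together took 4.10% ± 0.84 of all counts in the diabetic group and 1.45% ± 0.27 at day 7 (SD, n = 3 each). The 54 called lower took 18.96% ± 3.47 in the diabetic group and 52.67% ± 8.08 at day 7. Without miR-21a-5p the share of those called lower was 2.37% ± 0.63 in the diabetic group and 3.04% ± 0.15 at day 7. The miRNAs not called took 76.92% ± 4.31 in the diabetic group and 45.86% ± 7.82 at day 7. Among the miRNAs called lower, the difference in share was mostly that of miR-21a-5p.

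**Figure D2:**
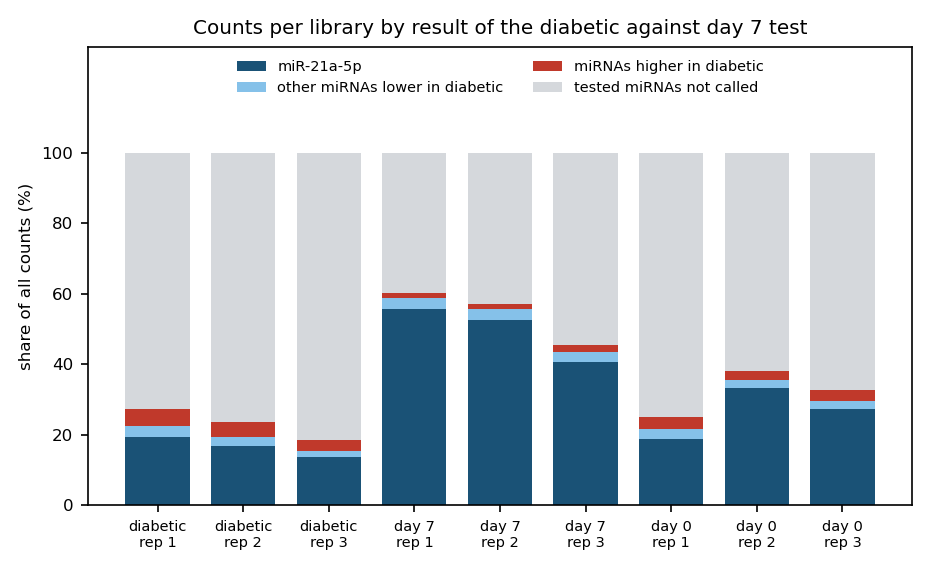
Stacked bars give the share of all counts, in percent, of miR-21a-5p, the other miRNAs called lower, those called higher and the tested miRNAs not called, for each of the 9 libraries. The dark miR-21a-5p block reaches 40.6% to 55.6% in the day 7 libraries and 13.7% to 19.4% in the diabetic libraries.

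Leukocyte miRNAs were less abundant in diabetic skin than at the day 7 wound edge. Of 8 tested members of the leukocyte list, 6 were lower, against 12.1% of all tested miRNAs, and 0 higher, with a median log2 fold change of -1.45 against -0.02 over all tested miRNAs. Their summed level was 758 to 941 CPM in the diabetic libraries, 1774 to 2379 CPM in the day 7 libraries and 867 to 1110 CPM in the day 0 libraries, so the diabetic and day 0 ranges overlapped. In bulk tissue, fewer cells of a type and less RNA per cell cannot be told apart. miR-223-3p, the main miRNA of neutrophils and other myeloid cells, stood at 86.1, 85.6 and 78.6 CPM in the diabetic libraries, against 405, 368 and 261 CPM in the day 7 libraries and 83.1, 134 and 106 CPM in the day 0 libraries. The day 7 libraries lay above all others, and the change was -2.05 ± 0.23 on the log2 scale (adjusted p = 5.57e-04, edgeR). Its partner arm miR-223-5p changed by -2.57 ± 0.34.

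miR-142a-5p, made in blood cells of all lineages, had 364, 411 and 457 CPM in the diabetic libraries, against 1132, 1072 and 824 CPM in the day 7 libraries (-1.30 ± 0.18, adjusted p = 0.00114, edgeR). miR-142a-3p changed by -1.27 ± 0.19, and its row cannot be told apart from that of the opposite strand, miR-142b, which held the same counts. miR-511-3p, from an intron of the macrophage mannose receptor gene Mrc1, had 6.98, 11.8 and 17.2 CPM in the diabetic libraries, against 30.3, 39.4 and 37.5 CPM in the day 7 libraries (-1.61 ± 0.34). The groups did not overlap for any of these. The lymphocyte miRNA miR-150-5p did not pass, at 88.5, 73.8 and 119 CPM in the diabetic libraries and 126, 93.3 and 165 CPM in the day 7 libraries, with overlapping ranges and a log2 fold change of -0.45 ± 0.26. miR-342-3p, another lymphoid and myeloid miRNA, did not pass either, at 42.5, 47.9 and 46.2 CPM in the diabetic libraries, 47.4, 59.5 and 43.3 CPM in the day 7 libraries and 13.2, 21.1 and 17.6 CPM in the day 0 libraries. The decrease within the list was thus carried by miR-223, miR-142a and miR-511, while the values of miR-150 and miR-342 overlapped between the diabetic group and day 7.

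Of 14 inflammation-induced miRNAs tested, 6 were lower, against 12.1% of all tested, and 0 higher, with a median of -0.74, and the list holds both arms of miR-21a. With total-count scaling the median was -0.08 and 3 members were lower. miR-146b-5p, which dampens NF-kB signalling, had 6407, 5531 and 4006 CPM in the diabetic libraries, against 15050, 12445 and 10965 CPM in the day 7 libraries and 6004, 6170 and 6088 CPM in the day 0 libraries. All day 7 libraries lay above all others (-1.27 ± 0.19, adjusted p = 0.00130, edgeR), and the call was lost with total-count scaling (adjusted p = 0.0779). miR-146a-5p, with the same seed and from another chromosome, had a log2 fold change of -0.08 ± 0.19 and overlapping ranges. miR-147-3p, induced in activated macrophages, stood at 1.64, 1.66 and 4.83 CPM in the diabetic libraries, against 17.1, 14.4 and 10.1 CPM in the day 7 libraries (-2.49 ± 0.52). The T cell and macrophage miRNA miR-155-5p passed narrowly (-0.75 ± 0.24, adjusted p = 0.0478, edgeR). Its adjusted p was 0.0506 with the replicate number as a block, and the call was lost without diabetic replicate 1 (0.122), diabetic replicate 2 (0.124), diabetic replicate 3 (0.115), day 7 replicate 1 (0.178), day 7 replicate 2 (0.0952), day 7 replicate 3 (0.117) or day 0 replicate 1 (0.0663). miR-222-3p changed by -0.71 ± 0.17, and the call was lost without diabetic replicate 2 (0.0598), diabetic replicate 3 (0.0515), day 7 replicate 1 (0.0857) or day 7 replicate 2 (0.0653). Its cluster neighbour miR-221-3p did not pass (-0.18 ± 0.17). miR-132-3p, induced by cell activation, did not pass at -0.72 ± 0.28.

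Some red-cell miRNAs passed as lower in the diabetic group, and which of them passed varied between settings. miR-451a, the most abundant red-cell miRNA in many tissues, had 664, 706 and 352 CPM in the diabetic libraries, against 2149, 1349 and 1141 CPM in the day 7 libraries and 951, 626 and 445 CPM in the day 0 libraries. The diabetic and day 7 ranges did not overlap (-1.43 ± 0.34, adjusted p = 0.0129, edgeR). The call was lost without day 7 replicate 1 (0.0857) and with total-count scaling (adjusted p = 0.144). Its cluster partners miR-144-3p (-1.17 ± 0.33) and miR-144-5p (-1.43 ± 0.45) passed as well, giving 3 of 6 list members lower, against 12.1% of all tested miRNAs, with a median of -0.93. With total-count scaling the median was -0.26 and 0 members passed. The count was also 0 without day 7 replicate 1, and 1 without diabetic replicate 2 or 3, day 7 replicate 2 or day 0 replicate 2. It was 5 without day 0 replicate 3 and 6 with DESeq2. The other 3 members are rows of miR-486 that share reads across strands, with log2 fold changes of -0.69 to -0.68 and edgeR adjusted p-values of 0.0685 to 0.0759. The endothelial arms miR-126a-3p (-0.27 ± 0.21) and miR-126a-5p (0.01 ± 0.22) did not pass.

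**Figure D3:**
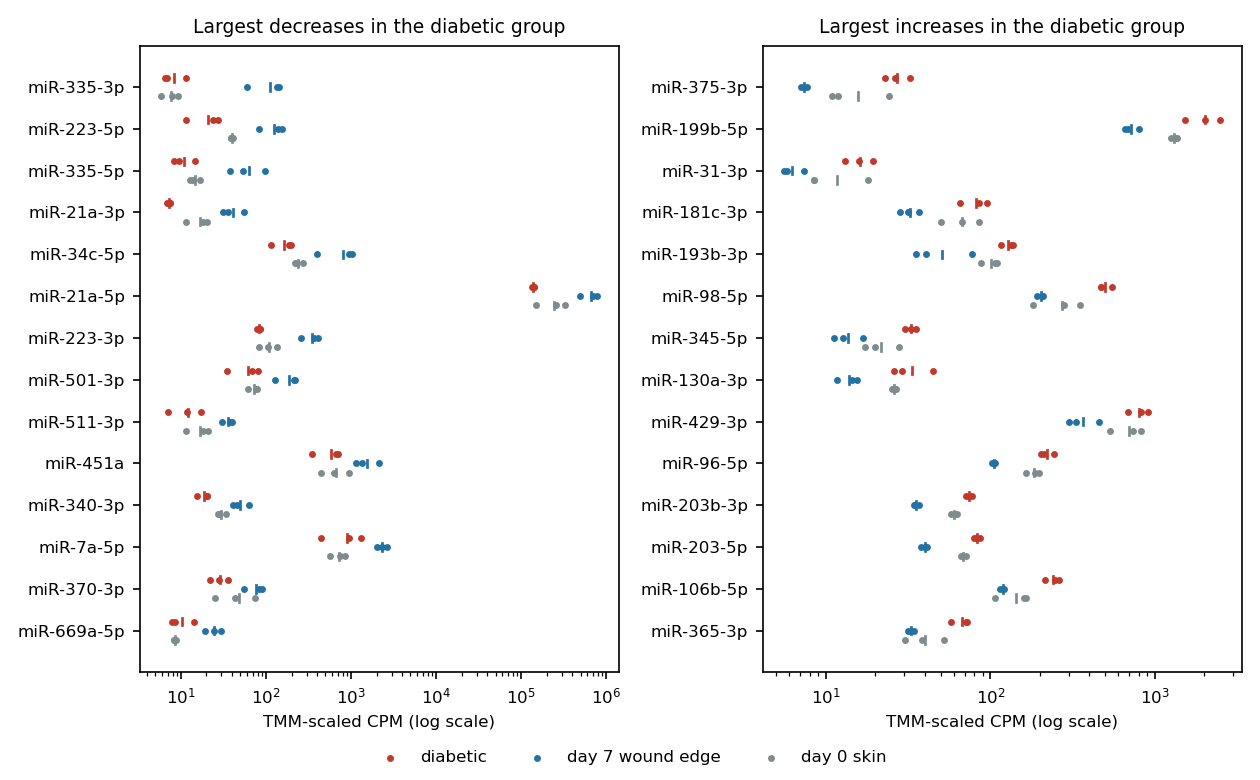
Points are TMM-scaled CPM of single libraries on a log axis for the 14 largest decreases (left) and the 14 largest increases (right) among the called miRNAs of at least 10 CPM on average whose diabetic and day 7 ranges were apart, in red for the diabetic group, blue for day 7 and grey for day 0, and short bars are group means. The rows were chosen with red and blue points apart, so only their distance and spread describe the data. For miR-335-3p the diabetic libraries lie at 6.85, 6.44 and 11.4 CPM against 144, 135 and 59.2 CPM at day 7.

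miR-335, from an intron of Mest, showed the largest decrease among miRNAs of at least 10 CPM. Mest is an imprinted gene expressed in fetal mesenchyme and in expanding fat tissue. miR-335-3p stood at 6.85, 6.44 and 11.4 CPM in the diabetic libraries, against 144, 135 and 59.2 CPM in the day 7 libraries and 9.23, 5.91 and 7.79 CPM in the day 0 libraries. The diabetic libraries lay in the range of the day 0 libraries or just above it, and day 7 replicate 3 was the lowest of its group. It was 14.0-fold below its day 7 level (-3.80 ± 0.39, adjusted p = 4.77e-04, edgeR), while miR-335-5p was 5.94-fold lower (-2.57 ± 0.37). The arms did not keep their ratio. The log2 ratio of 5p over 3p counts was 0.26, 0.56 and 0.34 in the diabetic libraries, against -1.43, -0.47 and -0.65 in the day 7 libraries and 0.49, 1.23 and 1.10 in the day 0 libraries. The 3p arm thus outnumbered the 5p arm at day 7 only, among these 9 libraries.

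miR-34b and miR-34c, which share a primary transcript activated by p53 and are also abundant in multiciliated cells, were lower in the diabetic group. miR-34c-5p had 114, 185 and 196 CPM in the diabetic libraries, against 957, 1038 and 395 CPM in the day 7 libraries and 222, 272 and 229 CPM in the day 0 libraries. Day 7 replicate 3 lay well below the other day 7 libraries but above all diabetic ones (-2.27 ± 0.34, adjusted p = 0.00130, edgeR). miR-34b-3p, at 1.10, 1.10 and 1.38 CPM in the diabetic libraries and 11.8, 13.7 and 4.81 CPM in the day 7 libraries, changed by -3.11 ± 0.44. miR-34c-3p also passed (-1.98 ± 0.58) with overlapping ranges, and lost its call without diabetic replicate 2 (0.121), diabetic replicate 3 (0.0882), day 7 replicate 1 (0.132), day 7 replicate 2 (0.157) or day 0 replicate 2 (0.0593). miR-34a-5p, encoded on another chromosome and also a p53 target, did not pass, at 83.6 ± 6.49 CPM in the diabetic group and 74.6 ± 12.7 CPM at day 7 (SD, n = 3 each).

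Further decreases came from loci of varied kinds. miR-340-5p, from an intron of Rnf130, had 1076, 1163 and 864 CPM in the diabetic libraries, against 2693, 2721 and 1999 CPM in the day 7 libraries (-1.26 ± 0.17, adjusted p = 9.53e-04, edgeR), and miR-340-3p fell alongside (-1.42 ± 0.24). miR-139-5p, from an intron of the phosphodiesterase gene Pde2a, had 108, 134 and 165 CPM in the diabetic libraries, against 421, 285 and 283 CPM in the day 7 libraries (-1.28 ± 0.22). Neither of these overlapped between the groups, and both held in each alternative. miR-7a-5p, a growth-restraining miRNA whose copies lie in an intron of Hnrnpk and on chromosome 7, had 1294, 941 and 448 CPM in the diabetic libraries, against 2663, 2341 and 2026 CPM in the day 7 libraries and 858, 746 and 564 CPM in the day 0 libraries. It changed by -1.39 ± 0.32, and the call was lost without day 7 replicate 1 (0.0555) and with total-count scaling (adjusted p = 0.166).

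The cluster in an intron of Clcn5 on the X chromosome, which codes for a chloride transporter, gave 3 lower of 7 tested, against 12.1% of all tested miRNAs, with a median of -0.75. miR-501-3p had 79.8, 68.5 and 34.5 CPM in the diabetic libraries, against 221, 215 and 129 CPM in the day 7 libraries (-1.62 ± 0.32). miR-532-5p had 1063, 1087 and 881 CPM in the diabetic libraries, against 2461, 1794 and 1867 CPM in the day 7 libraries (-1.01 ± 0.16). The ranges of both were apart, and with total-count scaling 0 members passed as lower and the median was -0.06. miR-362-3p of the same cluster stood on the other side at 0.77 ± 0.31 and did not pass in the main test. It passed in 6 of the 19 alternatives, among them DESeq2 (adjusted p = 0.0303) and no low-count filter (adjusted p = 0.0113, edgeR). miR-362-5p did not pass at -0.75 ± 0.31, except with the replicate number as a block (adjusted p = 0.0216, edgeR). The repeat-derived miRNAs of the Sfmbt2 intron, a rodent cluster active in the placenta, gave 3 lower of 7, against the same 12.1%, with a median of -1.0. miR-467a-5p and miR-467b-5p hold the same counts and cannot be told apart, at 35.1, 41.8 and 45.5 CPM in the diabetic libraries against 101, 106 and 82.8 CPM in the day 7 libraries (-1.24 ± 0.20). miR-669a-5p passed at -1.30 ± 0.28, and lost its call without diabetic replicate 2 (0.0517) or day 7 replicate 1 (0.0501).

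Of 27 tested miRNAs of the imprinted Dlk1-Dio3 locus on chromosome 12, 2 were lower, against 12.1% of all tested miRNAs, and 0 higher, with a median of -0.07. That share is no larger than the one over all miRNAs. miR-370-3p (-1.38 ± 0.37) lost its call without diabetic replicate 2 (0.0994), diabetic replicate 3 (0.0885), day 7 replicate 1 (0.116) or day 7 replicate 2 (0.0858), and miR-409-3p (-1.04 ± 0.33) lost it without diabetic replicate 1 (0.0533), diabetic replicate 2 (0.127), diabetic replicate 3 (0.156), day 7 replicate 1 (0.187), day 7 replicate 2 (0.158) or day 0 replicate 2 (0.0802). The abundant members miR-127-3p (-0.07 ± 0.25) and miR-379-5p (0.24 ± 0.18) did not pass. With total-count scaling 0 members were lower and 12 higher. The list did not hold miR-337-3p of the same locus, which was higher in the diabetic group at 7.26, 12.5 and 18.3 CPM, against 3.54, 2.01 and 3.85 CPM in the day 7 libraries (2.0 ± 0.41). It cannot be told apart from the opposite-strand row miR-3544-5p, and it was named after its value was seen.

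Epithelial miRNAs lay on the other side. Of 18 tested members of the epidermal list, 9 were higher in the diabetic group than at day 7, against 7.83% of all tested miRNAs, and 0 lower, with a median log2 fold change of 0.71 in a range of 0.05 to 1.89. Their summed level was 66895 to 95073 CPM in the diabetic libraries, 60188 to 64982 CPM in the day 7 libraries and 72759 to 87361 CPM in the day 0 libraries. With total-count scaling 15 members were higher and the median was 1.39, where that of all miRNAs was 0.61. The list holds several arms of 1 hairpin and several hairpins of 1 transcript, so its members are not independent.

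The miR-183/96/182 cluster, a sensory and epithelial cluster with 3 neighbouring hairpins, was higher throughout. miR-182-5p had 3346, 3335 and 2933 CPM in the diabetic libraries, against 1628, 1858 and 1874 CPM in the day 7 libraries and 2837, 3122 and 3326 CPM in the day 0 libraries. All diabetic libraries lay above all day 7 libraries, and the diabetic and day 0 ranges overlapped (0.84 ± 0.13, adjusted p = 0.00145, edgeR). miR-96-5p had 213, 243 and 204 CPM in the diabetic libraries, against 105, 102 and 106 CPM in the day 7 libraries, which lay within a few CPM of each other (1.07 ± 0.17). miR-183-5p changed by 0.71 ± 0.19, and lost its call without diabetic replicate 1 (0.0711), diabetic replicate 2 (0.0581), day 7 replicate 1 (0.0858) or day 7 replicate 3 (0.0609).

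In the miR-200 family, whose members repress the mesenchymal factors Zeb1 and Zeb2, some members passed and others did not. Whether the members differ in their change was not tested. miR-200a-3p had 5283, 5752 and 5722 CPM in the diabetic libraries, against 2696, 2228 and 3757 CPM in the day 7 libraries (0.95 ± 0.18, adjusted p = 0.00395, edgeR). miR-429-3p, from the same transcript, had 825, 904 and 686 CPM in the diabetic libraries, against 333, 299 and 459 CPM in the day 7 libraries (1.15 ± 0.21). Both groups of libraries were apart for each. miR-200b-3p, their neighbour on chromosome 4, did not pass (0.47 ± 0.18), with 6299, 5486 and 4121 CPM in the diabetic libraries and 3502, 4218 and 3756 CPM in the day 7 libraries. It passed in 3 of the 19 alternatives: total-count scaling, limma, and without diabetic replicate 3 (adjusted p = 0.0170, edgeR). miR-200c-3p, with the seed of miR-429-3p, did not pass (0.18 ± 0.15), while its hairpin neighbour miR-141-3p, with the seed of miR-200a-3p, did (0.91 ± 0.27). The call of miR-141-3p was lost without diabetic replicate 2 (0.0532), diabetic replicate 3 (0.105), day 7 replicate 1 (0.124) or day 7 replicate 2 (0.115). Both tested miRNAs with the seed AACACUG were thus higher, and 1 of 3 with the seed AAUACUG, against 7.83% of all tested miRNAs. miR-200a-3p and miR-141-3p share a stretch of at least 15 bases, so the counting could split reads between their rows. Their calls may not be independent.

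miR-203, which drives keratinocytes out of the cell cycle, differed by arm. The abundant guide miR-203-3p did not pass, at 66268, 56548 and 42252 CPM in the diabetic libraries and 44168, 47712 and 42785 CPM in the day 7 libraries (0.29 ± 0.21). The rare arm miR-203-5p had 86.7, 79.5 and 81.3 CPM in the diabetic libraries, against 39.8, 41.5 and 38.0 CPM in the day 7 libraries (1.05 ± 0.18, adjusted p = 0.00229, edgeR), with tight and separate groups. It lies at chr12:112130889-112130910, and the row miR-203b-3p covers the opposite strand at chr12:112130887-112130908, with nearly the same values (1.07 ± 0.18). Since the strand rule of the counting was not given in the sources used here, these rows cannot be told apart. The row miR-203b-5p, opposite miR-203-3p, held far fewer counts (118851 against 1950069 over all libraries) and was called higher. It had 3749 ± 622 CPM in the diabetic group and 2022 ± 317 CPM at day 7 (0.89 ± 0.19, adjusted p = 0.00605, edgeR). How reads of that position were split between its rows is not known. miR-205-5p, an abundant miRNA of basal keratinocytes, fell just short at 0.53 ± 0.18 (adjusted p = 0.0564, edgeR), although its ranges were apart. With the replicate number as a block its adjusted p was 0.0490, and with DESeq2 it was 0.0335.

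miR-375-3p showed the largest increase among miRNAs of at least 10 CPM. It is known best from pancreatic islets, and it is also found in epithelia and in Merkel cells. It had 26.3, 32.6 and 22.8 CPM in the diabetic libraries, against 7.07, 7.36 and 7.70 CPM in the day 7 libraries and 24.2, 10.9 and 11.8 CPM in the day 0 libraries. The day 7 libraries lay close together and below all others, and the change was 3.70-fold (1.89 ± 0.34, adjusted p = 0.00277, edgeR). miR-31-3p, from a hairpin induced in proliferating epidermis, had 15.9, 19.3 and 13.1 CPM in the diabetic libraries, against 5.60, 7.36 and 5.78 CPM in the day 7 libraries (1.37 ± 0.35). It lost its call without diabetic replicate 2 (0.0687) or day 7 replicate 1 (0.0703), and the main arm miR-31-5p did not pass (0.08 ± 0.41).

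**Figure D4:**
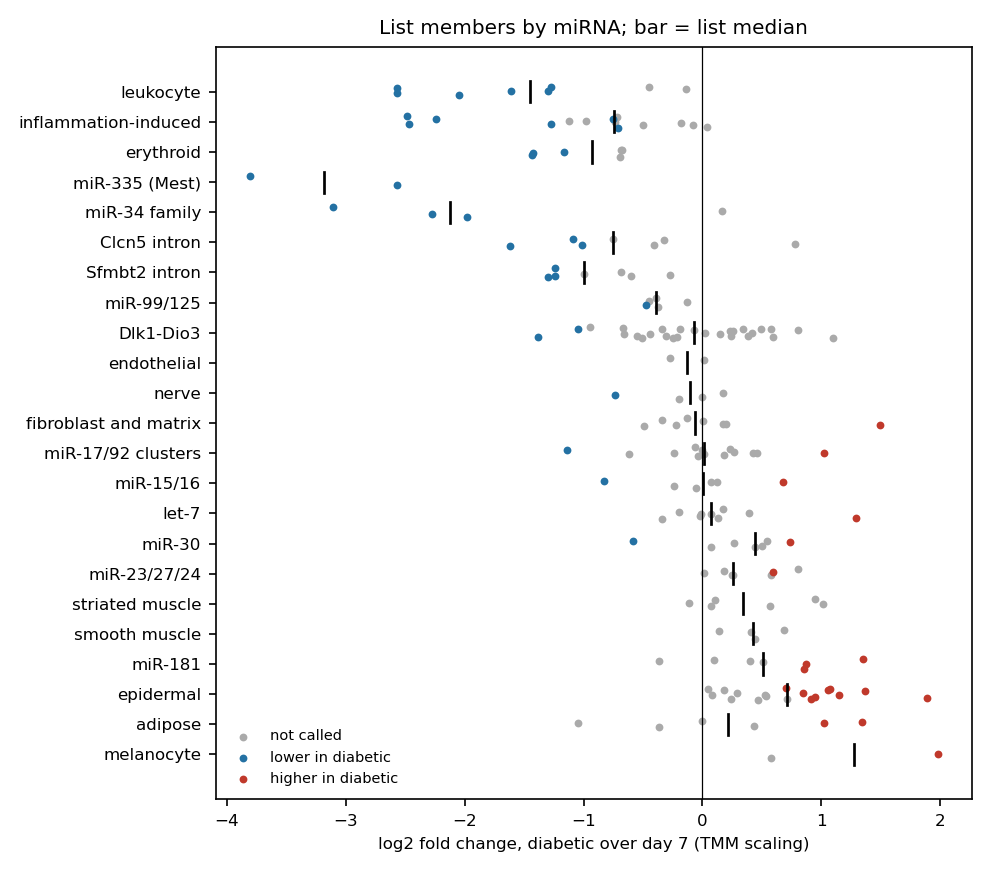
Each point is the log2 fold change, diabetic over day 7, of 1 tested miRNA, by list, in blue where called lower, red where called higher and grey where not called, and the black bar is the list median. The leukocyte list has its median at -1.45 and the epidermal list at 0.71, while the let-7, miR-17/92 and miR-15/16 lists sit within 0.07 of 0.

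The fibroblast and matrix list had 1 of 8 tested members higher, against 7.83% of all tested miRNAs, and 0 lower, with a median of -0.06. A single call of 8 is near the share over all miRNAs. That member was miR-199b-5p, which closely resembles miR-199a-5p and comes from another chromosome. miR-199b-5p had 1529, 2022 and 2496 CPM in the diabetic libraries, against 689.8, 661 and 802 CPM in the day 7 libraries and 1248, 1354 and 1342 CPM in the day 0 libraries. The 3 groups did not overlap, and the change was 2.81-fold (1.49 ± 0.18, adjusted p = 5.84e-04, edgeR). miR-199a-5p leaned the other way without passing, at 4361, 4196 and 4367 CPM in the diabetic libraries and 5412, 5592 and 5325 CPM in the day 7 libraries (-0.34 ± 0.12). The log2 ratio of miR-199b-5p over miR-199a-5p, which no library scaling can change, was -1.51, -1.05 and -0.81 in the diabetic libraries, against -2.97, -3.08 and -2.73 in the day 7 libraries and -2.23, -1.99 and -2.15 in the day 0 libraries. Reads of such near-identical miRNAs can be split between rows by the counting, whose rules were not given in the sources used here. For its part, the collagen-repressing miR-29a-3p did not pass (-0.22 ± 0.14).

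In the adipose list 2 of 6 tested members were higher, against 7.83% of all tested miRNAs, both of a group of miRNAs known from brown fat. miR-193b-3p had 116, 133 and 137 CPM in the diabetic libraries, against 35.4, 40.8 and 77.0 CPM in the day 7 libraries (1.34 ± 0.28, adjusted p = 0.00624, edgeR). miR-365-3p, partly encoded beside it, had 57.7, 71.1 and 72.0 CPM in the diabetic libraries, against 32.7, 34.4 and 31.8 CPM in the day 7 libraries (1.02 ± 0.24). In both, the highest day 7 library lay below the lowest diabetic library. miR-378a-3p, from an intron of Ppargc1b and active in metabolic tissue, stayed at -0.00 ± 0.25. The list median was 0.21.

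miR-211-5p, from an intron of the melanocyte channel gene Trpm1, had 20.3, 16 and 6.55 CPM in the diabetic libraries, against 2.65, 5.01 and 3.37 CPM in the day 7 libraries (1.98 ± 0.58). Its call was lost without diabetic replicate 1 (0.0869), diabetic replicate 2 (0.0953), day 7 replicate 1 (0.135), day 7 replicate 2 (0.0638) or day 7 replicate 3 (0.0773). miR-211-5p shares a stretch of at least 15 bases with miR-204-5p (0.57, not called), so the counting could split reads between their rows. The muscle lists held no call in the main test. miR-1a-3p stood at 26395, 69004 and 121200 CPM in the diabetic libraries and 45537, 68083 and 92795 CPM in the day 7 libraries, so its spread within a group exceeded the difference between groups (0.07 ± 0.45). miR-133a-3p did not pass at 0.94 ± 0.41, nor did miR-143-3p of smooth muscle at 0.41 ± 0.27. miR-133a-3p passed in 6 of the 19 alternatives, among them DESeq2 (adjusted p = 0.0335) and no low-count filter (adjusted p = 2.12e-05, edgeR). miR-143-3p passed in 2, total-count scaling and limma. The hypoxia miRNA miR-210-3p did not pass at -0.21 ± 0.25, and miR-26a-5p, described in diabetic wounds as a brake on vessel growth, did not pass at 0.47 ± 0.20 with ranges apart.

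In the let-7 and AAAGUGC families of 1 seed each, 1 member was called higher and the others did not pass the test. Of all tested miRNAs 7.83% were higher, so a single call of 9 is near that share. Of 9 tested miRNAs with the let-7 seed, 1 was higher and 0 lower, with a median of 0.07. That was miR-98-5p, at 546, 471 and 471 CPM in the diabetic libraries, against 208, 207 and 193 CPM in the day 7 libraries and 182, 352 and 280.3 CPM in the day 0 libraries (1.29 ± 0.22, adjusted p = 0.00227, edgeR). let-7f-5p, a copy of which lies beside it in Huwe1, was at -0.01 ± 0.16. With total-count scaling 6 of the 9 were higher. miR-98-5p over let-7f-5p gave log2 ratios of -5.17, -5.58 and -5.51 in the diabetic libraries, against -6.56, -6.90 and -6.69 in the day 7 libraries. Of 5 with the seed AAAGUGC, 1 was higher, against the same 7.83%. It was miR-106b-5p, with 214, 263 and 247 CPM in the diabetic libraries against 119, 115 and 122 CPM in the day 7 libraries (1.02 ± 0.20). Its seed mates miR-17-5p (0.18 ± 0.21) and miR-20a-5p (-0.01 ± 0.23), which promote the cell cycle, did not pass.

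Further families had calls in some of their members. miR-181d-5p (0.85 ± 0.17) was higher while the far more abundant miR-181a-5p (0.10 ± 0.15) did not pass. miR-181c-3p, on the same chromosome 8 transcript as miR-181d, had 95.7, 85.1 and 65.1 CPM in the diabetic libraries, against 28.3, 31.4 and 37.1 CPM in the day 7 libraries (1.35 ± 0.26). miR-181c-5p passed at 0.87 ± 0.23 and lost its call without diabetic replicate 1 (0.0602), day 7 replicate 1 (0.0902) or day 7 replicate 2 (0.0648). miR-130a-3p had 26.0, 29.1 and 44.8 CPM in the diabetic libraries, against 14.4, 11.7 and 15.4 CPM in the day 7 libraries (1.26 ± 0.26). miR-10a-5p, from the HoxB cluster, passed at 0.74 ± 0.19 and lost its call without diabetic replicate 2 (0.0687), day 7 replicate 1 (0.0703) or day 7 replicate 2 (0.0648), while miR-10b-5p of the HoxD cluster was at -0.03 ± 0.19. Of 43 seeds with at least 2 tested miRNAs of known RefSeq sequence, 1 had a call in each direction. Most of the 43 held fewer than 2 calls and could not show both directions, so this count does not show how often seed mates part. miR-30b-5p (0.74) and miR-30d-5p (-0.58), called in opposite directions, had no RefSeq sequence, so they did not enter this count. The counted seed with both directions, AGCAGCA, held miR-497a-5p (0.68 ± 0.20) and miR-15b-5p (-0.83 ± 0.24). miR-497a-5p lost its call without diabetic replicate 2 (0.0693), diabetic replicate 3 (0.0745), day 7 replicate 1 (0.123) or day 7 replicate 2 (0.0858), and miR-15b-5p without diabetic replicate 2 (0.140), diabetic replicate 3 (0.110), day 7 replicate 1 (0.178), day 7 replicate 2 (0.0784), day 7 replicate 3 (0.0659) or day 0 replicate 2 (0.0618). Their log2 ratio was 1.32, 1.95 and 2.71 in the diabetic libraries, against 0.00, 0.54 and 0.80 in the day 7 libraries and 1.47, 1.54 and 1.67 in the day 0 libraries, so the diabetic and day 7 ranges were apart.

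Several lists held single calls that were lost when 1 library was left out. In the miR-30 list miR-30b-5p was higher (0.74 ± 0.21) and miR-30d-5p lower (-0.58 ± 0.14), though their genes are neighbours, and the median was 0.44. miR-30d-5p had 5550, 5998 and 5249 CPM in the diabetic libraries, against 8532, 8234 and 8347 CPM in the day 7 libraries, and its sign turned with total-count scaling (0.07). miR-30b-5p lost its call without diabetic replicate 2 (0.0575), diabetic replicate 3 (0.0625), day 7 replicate 1 (0.0902) or day 7 replicate 2 (0.0928), and miR-30d-5p without diabetic replicate 2 (0.0675), diabetic replicate 3 (0.0551), day 7 replicate 1 (0.0925), day 7 replicate 2 (0.0703) or day 7 replicate 3 (0.0508). miR-125b-5p, an abundant miRNA of skin stem cells and fibroblasts, was lower (-0.48 ± 0.12), turned sign with total-count scaling (0.17) and lost its call without diabetic replicate 2 (0.127), diabetic replicate 3 (0.0640), day 7 replicate 1 (0.0967), day 7 replicate 2 (0.0893) or day 7 replicate 3 (0.0850). miR-23b-3p was higher (0.59 ± 0.14) and lost its call without diabetic replicate 2 (0.0516), day 7 replicate 1 (0.0674) or day 7 replicate 2 (0.0575), while miR-23a-3p did not pass (0.25 ± 0.16). miR-128-3p, a neuronal miRNA, was lower (-0.74 ± 0.21) and lost its call without diabetic replicate 1 (0.0647), diabetic replicate 2 (0.111), diabetic replicate 3 (0.0905), day 7 replicate 1 (0.123), day 7 replicate 3 (0.113) or day 0 replicate 2 (0.0572). miR-19a-3p of the miR-17/92 transcript was lower (-1.14 ± 0.33) and lost its call without diabetic replicate 1 (0.0661), diabetic replicate 2 (0.0759), diabetic replicate 3 (0.115), day 7 replicate 1 (0.0843), day 7 replicate 2 (0.170) or day 0 replicate 2 (0.0593).

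Ratios of miRNAs within a library do not depend on how libraries are scaled. Of 15 pairs of related miRNAs, 12 had ratios apart between the 3 diabetic and 3 day 7 libraries. Over all tested miRNAs 38.3% had ranges apart. The pairs were chosen after their values were seen, each with a called member, which favours ratios apart. The count is therefore no result about families. miR-146b-5p over miR-146a-5p gave log2 ratios of 2.72, 2.39 and 1.40 in the diabetic libraries, against 3.78, 3.23 and 3.06 in the day 7 libraries. miR-10a-5p over miR-10b-5p gave 0.01, -0.07 and -0.71 in the diabetic libraries, against -0.96, -1.07 and -1.01 in the day 7 libraries. miR-222-3p over miR-221-3p gave -1.34, -1.38 and -1.34 in the diabetic libraries, against -0.88, -0.87 and -0.73 in the day 7 libraries. The first and last of these ratios were lower and the other higher in every diabetic library than in any day 7 library. A ratio shows unequal change and not which member moved.

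Between the arms of 1 hairpin the picture was mixed. Of 127 hairpins with both arms tested, 15 had both arms called, all in 1 direction, 24 had 1 arm called, and the log2 arm ratio of 45 (35.4%) was apart between the groups. Of all tested miRNAs 19.9% were called and 38.3% had ranges apart. The share of arm ratios apart is thus no larger, and is no result about arms. The 5p over 3p ratio of miR-142a was 1.37, 1.31 and 1.11 in the diabetic libraries and 1.27, 1.32 and 1.23 in the day 7 libraries, with overlapping ranges. For miR-106b it was 0.52, 1.09 and 1.17 in the diabetic libraries, against -0.26, -0.02 and -0.14 in the day 7 libraries, and the 3p arm did not pass (-0.04 ± 0.23). For miR-361 it was -1.39, -1.42 and -1.32 in the diabetic libraries, against -2.31, -1.97 and -1.78 in the day 7 libraries.

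**Figure D5:**
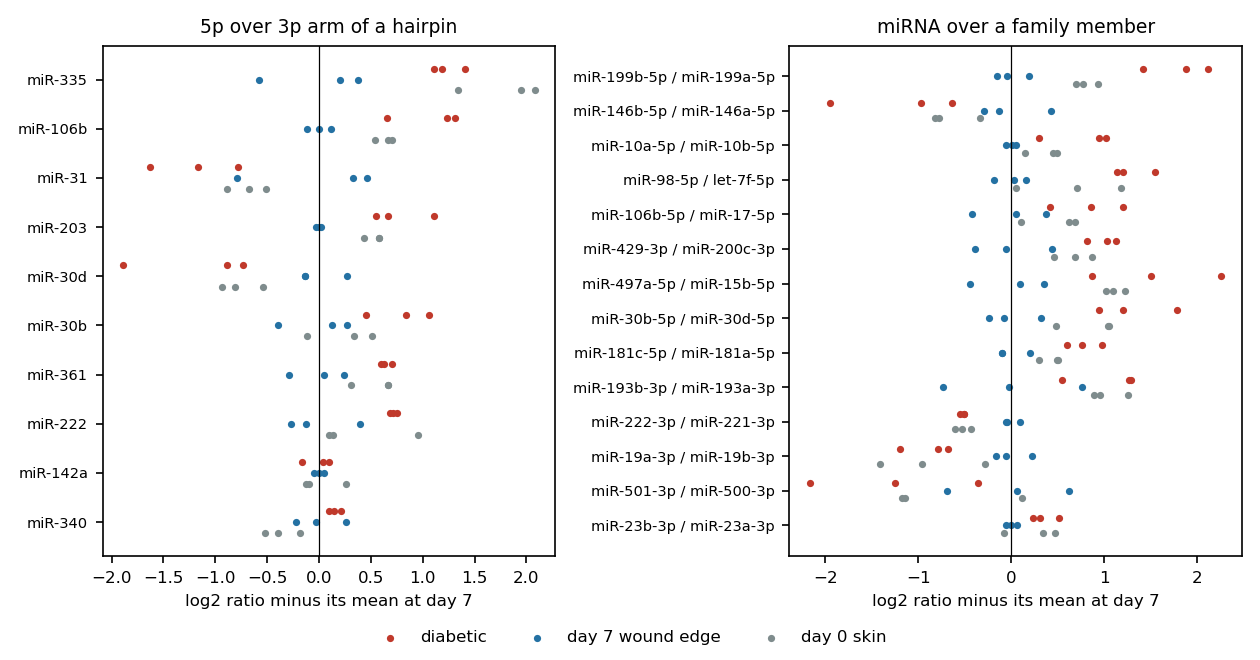
Points are log2 ratios of counts within single libraries, each minus the mean of the 3 day 7 libraries (vertical line at 0), for the 5p over 3p arm of 10 hairpins (left) and for 14 pairs of related miRNAs (right), in red for diabetic, blue for day 7 and grey for day 0. The diabetic points lie to the right of all day 7 points for miR-199b-5p over miR-199a-5p and miR-98-5p over let-7f-5p, and overlap them for the miR-142a arms.

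Neighbouring hairpins were compared by position. Of 30 groups of at least 2 hairpins within 10000 bases on 1 strand in RefSeq, 19 held a call and 0 held calls in both directions. Of all tested miRNAs 19.9% were called, and a group of several arms is more likely to hold a call than 1 miRNA. Most of the 19 groups held a single call and could not show both directions, so the 0 is no result about neighbours. Only miRNAs made from 1 hairpin and with a RefSeq sequence were counted, so miR-30b, miR-30d and miR-450a-5p were left out. miR-450a-5p, made from more than 1 hairpin, was higher in the diabetic group. It lies beside miR-450b-5p on the X chromosome, which was lower (-0.82). Both calls were lost when 1 of several libraries was left out. The miR-144/451a group had all 3 tested arms lower, the miR-183/96/182 group all 3 higher and the miR-34b/34c group both tested 3p arms lower. In the miR-106b/93/25 group of Mcm7 1 of 5 arms was called, and in the large Dlk1-Dio3 groups of 16 and 45 tested arms 1 each. As a description with no test, the median GC content of the mature miRNA was 43.5% for those called higher, 44.5% for those called lower and 47.6% for those not called, over the 381 tested miRNAs (85.2%) with a RefSeq sequence.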

How the data were processed

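Per the file headers, the deposited table gives read counts and TPM for every miRNA row and library. The deposited counts were not normalized. The deposited TPM values equal counts per 1000000 of a library's total, as tested on the table. Per the submitters' processing notes, the tools and build were Bowtie, DESeq 3.0.3 and mouse build mm9, with no role given. Mismatch, strand and multimapping rules were not given in the sources used here. RNA was extracted with TRIzol, and libraries were read as 50 bp single ends, per the labels' protocols. Library totals are given in the report, and counting error adds to a biological coefficient of variation of 27.8% and can exceed it in rows of a few CPM.

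Counts were tested with edgeR 4.0.16 in R 4.3.3 by the quasi-likelihood F test, with TMM scaling, filterByExpr (minimum count 10, minimum total 15) and 1 fit over all 9 libraries. Rows left out held 0.0217% of all counts. Adjusted p-values are Benjamini-Hochberg over 447 miRNAs, called under 0.05, and standard errors of log2 fold changes come from the F statistic. DESeq2 1.42.0 and limma 3.58.1 on log2(TPM + 1) were alternatives. The test was checked on simulated data. It recovered 65% of 100 simulated 2-fold changes and 98% of 100 simulated 4-fold changes, and called 2 of 247 unchanged miRNAs. A miRNA that did not pass may therefore still differ. Ratios of arms used a pseudocount of 0.5 counts.

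miRNAs named are the 14 largest increases and 14 largest decreases that passed, at 10 or more CPM on average and with groups apart, their partner arms, the 4 most abundant tested members of each of 32 lists and the 5 most abundant rows. Others were chosen after their values were seen. The members and lists were chosen with earlier results of these data known. Of the 89 calls, 59 were in a list and 30 in none. Coordinates are those of GRCm38.p6, hosts come from all GENCODE transcripts of that build, and neither was used for counts.

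Replicate numbers were checked for pairing. Deviations from group means correlated at 0.381, 0.443 and 0.390 between same-numbered diabetic and day 7 libraries (0.36, 0.151 and 0.32 without the miR-122 rows), and at -0.306 to -0.053 between others. Without the miR-122 rows, libraries of different numbers correlated at -0.323 to 0.029. Deviations within a group cancel out, so positive values for same-numbered libraries push the others down. By this check same-numbered libraries were the more alike, from the data and not from a stated shared batch. It does not settle whether they are paired, and the main test did not use the numbers. Chi-square between replicates was 178 to 1500 for each degree of freedom, so none was a copy of another.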

Additional observations from a re-analysis of the deposited data

How the results depend on the processing

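Calls numbered 89 (35 higher, 54 lower). Total-count scaling gave 198 (174 higher, 24 lower) and limma on log2(TPM + 1) 194 (170 higher, 24 lower), where the median of all miRNAs moved to 0.61 and 0.56. These scalings follow the share of miR-21a-5p: total counts without it gave 68 (24 higher, 44 lower). RLE scaling gave 87, DESeq2 102, no low-count filter 101, a mean of at least 10 CPM 80, the 6 libraries alone 84, and the table without opposite-strand rows 86. Leaving out 1 library gave 49 to 101 calls, 20 to 46 higher and 29 to 57 lower. Without 1 library 43 of the 89 were lost at least once, 40 of them without day 7 replicate 1, and scaling ended 42.

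With the replicate number as a block there were 93 calls (36 higher, 57 lower), of which 84 were among the 89. The calls of miR-10a-3p (0.0506), miR-155-5p (0.0506), miR-350-5p (0.0563), miR-425-5p (0.0534) and miR-450b-5p (0.0517) were lost, by edgeR adjusted p, and 9 were gained.

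Signs turned with total-count scaling for the called miR-30d-5p (0.0701), miR-125b-5p (0.17) and miR-425-5p (0.14), and with limma likewise (0.0547, 0.16 and 0.12). They turned for uncalled miRNAs that then passed: miR-378a-3p (0.59 with total counts, 0.60 with limma), let-7f-5p (0.63 with each), miR-322-5p (0.60 and 0.62), miR-148b-3p (0.53 with each) and miR-25-3p (0.61 with total counts). Depth limits rows of a few CPM, where 1 library can carry a call.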

Other observations

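Of the 30 called miRNAs in no list, several were rare. miR-129-5p, abundant in nervous tissue, had 2.19, 0.736 and 1.72 CPM in the diabetic libraries, against 17.7, 8.69 and 6.26 CPM in the day 7 libraries (-2.80 ± 0.51 on the log2 scale), and its opposite-strand row miR-129b-3p cannot be told apart from it. miR-592-5p had 0.548, 0.736 and 1.03 CPM in the diabetic libraries, against 5.30, 6.69 and 2.41 CPM in the day 7 libraries (-2.72 ± 0.61). Both held in each alternative that tested them, and both were chosen after their values were seen. miR-218-5p, from introns of the Slit2 and Slit3 guidance genes, had 1425, 1476 and 1702 CPM in the diabetic libraries, against 1004, 869.5 and 1014 CPM in the day 7 libraries (0.67 ± 0.15). miR-345-5p had 30.1, 35.5 and 32.7 CPM in the diabetic libraries, against 11.2, 12.7 and 16.8 CPM in the day 7 libraries (1.28 ± 0.26), while miR-345-3p did not pass (0.07 ± 0.34).

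miR-215-5p had the largest log2 fold change of all (-4.25 ± 1.01, adjusted p = 0.0129, edgeR), with overlapping ranges. It stood at 1.23, 0.921 and 0.345 CPM in the diabetic libraries and 40.7, 11.4 and 0.963 CPM in the day 7 libraries, so 1 day 7 library carried much of it, and the call was lost without diabetic replicate 2 (0.0555) or day 7 replicate 1 (0.0925). Its family member miR-192-5p did not pass (-0.19 ± 0.17). miR-196b-5p, from a Hox cluster, spread widely within the diabetic group. It stood at 66.0, 10.9 and 6.21 CPM in the diabetic libraries and 72.5, 122 and 63.1 CPM in the day 7 libraries, and did not pass (-1.60 ± 1.09).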
